A study of Mus musculus with 6 samples.

Results

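The Ear2 and Rnase2a loci of mouse chromosome 14 were described through the accessible sites of the deposited site table that lie wholly within 2 windows of the mm9 build. The Ear window, from 44.35 to 44.85 Mb, held 251 sites, and the Rnase2a window, from 51.8 to 52 Mb, held 78, so that 329 of the 578591 sites of the table were members. Membership used position only and no measured value. ATAC-seq, which marks open chromatin by letting a transposase insert sequencing adapters into it, was done on bone marrow-derived macrophages (BMDMs) of wild-type C57BL/6J mice. There were 6 libraries, with 1 per group. Those without IL-4 were Untreated and DMSO. Those with IL-4 were named IL-4, DMSO + IL-4, MCSF + IL-4 and LatA + IL-4. IL-4 was used at 20 ng/mL for 24 hours, MCSF, also named CSF1, at 100 ng/mL. Latrunculin A (LatA), an inhibitor of actin polymerization, was used at 1 μM, with DMSO as its vehicle. All cells had been grown from marrow in medium conditioned by L929 cells, a source of CSF1, so no group was without earlier CSF1. The age of the mice is not given in the labels.

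Ear2 and Rnase2a encode eosinophil-associated ribonucleases, small secreted proteins of the RNase A superfamily that degrade RNA. The family has grown in rodents by repeated duplication, which left many near-identical genes and pseudogenes beside each other. IL-4 signals through its receptor to the transcription factor STAT6, and macrophages given IL-4 are known to express members of this family.

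In the RefSeq annotation, Ear1 and Ear2 lie at the ends of a row of genes and pseudogenes that includes Ear10, Ang5, Ang6 and several Ear pseudogenes. Ang5 and Ang6 belong to the angiogenins, ribonucleases related to the Ear proteins. Rnase2a follows Rnase6, Rnase1, Rnase2b, Ang2 and Ear14 in that order. These positions belong to the GRCm38 assembly and the sites to mm9, so no gene start was placed among the sites, and no site is called the promoter of Ear2 or Rnase2a. The table pairs no site with a gene, so the labelled cell type was not checked against marker genes.

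Promoter sequences are shown because reads were aligned with up to 10 reported positions each, so duplicated sequence can give the same read to several sites. Each is the 250 bases before the gene start on the gene's strand, from RefSeq on GRCm38.p6. Capitals mark bases that differ from, or have no partner in, the promoter compared. Ear1 (chr14:43819640-43819889, minus strand) is compared with Ear2, Ear2 (chr14:44102404-44102653, plus strand) with Rnase2a, and Rnase2a (chr14:51256113-51256362, minus strand) and Rnase2b (chr14:51162010-51162259, plus strand) with Ear2.
Ear1: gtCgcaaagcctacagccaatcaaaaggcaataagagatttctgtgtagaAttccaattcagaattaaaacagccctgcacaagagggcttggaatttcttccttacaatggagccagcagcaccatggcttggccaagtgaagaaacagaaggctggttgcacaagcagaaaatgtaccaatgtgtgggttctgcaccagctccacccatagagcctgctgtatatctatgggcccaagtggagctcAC
Ear2: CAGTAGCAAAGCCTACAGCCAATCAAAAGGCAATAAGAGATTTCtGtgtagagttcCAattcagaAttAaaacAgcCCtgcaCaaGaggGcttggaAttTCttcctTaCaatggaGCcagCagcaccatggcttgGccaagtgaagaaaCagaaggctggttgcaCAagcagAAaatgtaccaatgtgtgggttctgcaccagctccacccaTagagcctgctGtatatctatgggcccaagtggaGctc
Rnase2a: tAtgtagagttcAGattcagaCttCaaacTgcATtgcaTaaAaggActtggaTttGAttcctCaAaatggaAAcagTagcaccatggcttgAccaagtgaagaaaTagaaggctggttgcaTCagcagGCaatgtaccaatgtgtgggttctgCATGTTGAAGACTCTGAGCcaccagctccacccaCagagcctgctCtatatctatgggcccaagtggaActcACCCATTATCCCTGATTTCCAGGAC
Rnase2b: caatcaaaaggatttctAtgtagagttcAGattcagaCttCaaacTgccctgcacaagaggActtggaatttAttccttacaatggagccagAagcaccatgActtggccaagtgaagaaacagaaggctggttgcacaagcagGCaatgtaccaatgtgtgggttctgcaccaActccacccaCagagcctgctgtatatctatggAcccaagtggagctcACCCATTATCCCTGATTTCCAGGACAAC

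Ear1 and Ear2 were identical at 246 of 248 aligned bases (99.2%). Of the 213 words of 38 bases in the Ear2 promoter, the length of 1 read, 170 were also in the Ear1 promoter. Ear2 and Rnase2a were identical at 178 of 206 aligned bases (86.4%) and shared no word. In the GRCm38 chromosomes, 79.8% of the Ear2 words occurred in 2 or more places, against 100.0% for Ear1, 60.1% for Ear10, 56.3% for Rnase2b, 28.6% for Ear6, 8.92% for Rnase2a and 7.04% for Ear14. The Ear2 promoter was thus mostly made of words found in several places, and the Rnase2a promoter mostly of words found in 1. Only exact matches were counted, so places with a mismatch are left out. Rnase2a was identical to Rnase2b at 91.3% and to Ear6 at 88.2% of aligned bases. Promoters were found for 15 of 19 listed genes of the family, without Ear3, Ear4, Ear5 and Ang2.

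A STAT6 motif (TTCNNNNGAA, either strand) was in none of these 15 promoters and in 5.86% of all 27018 promoters. The PU.1 motif GAGGAA was in the promoters of Rnase2a, Ang4 and Rnase6 and in 23.1% of all promoters. The AP-1 motif TGANTCA was in the promoter of Ang4 and in 6.87% of all. Windows of 250 bases were searched and distal sites were not.

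Reads per library summed to between 12387332 and 19889902 over all sites, of which the 20 strongest sites took 13.5% to 22.2%. Values below are normalized reads, which are whole reads divided by the library's scale. The tested sites were those whose mean over the libraries reached 20, which kept 114 of 251 Ear sites and 32 of 78 Rnase2a sites, or 45.4% and 41.0%, against 22.8% of all sites. Means of 200 or more were reached by 10.4% of Ear and 7.69% of Rnase2a sites and by 0.618% of all. A site was called higher or lower where the ratio, after adding 1 read, passed 1.5-fold. With 1 library per group there is no replicate error and no p-value. Intervals are exact 95% Clopper-Pearson intervals of a ratio of reads, and they cover counting error only. If a read reported at several positions was counted at each, it entered a sum more than once, and the intervals of the sums are then too narrow even for that. In bulk samples, more cells with an open site and more openness per cell cannot be told apart.

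Reads over the Ear window were higher in the libraries with IL-4 than in those without, and higher again with latrunculin A or MCSF added. Summed over its 251 sites, the window held 8154 and 10099 normalized reads without IL-4 (Untreated and DMSO), 16211 with IL-4, 17155 with IL-4 in DMSO, 21247 with IL-4 plus MCSF and 26505 with IL-4 plus LatA. In the same order of libraries, which is kept below, the Rnase2a window held 1993, 2499.9, 4431, 4519, 5911 and 6923. In both windows the 2 libraries without IL-4 were the lowest and LatA + IL-4 the highest.

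The summed IL-4 to Untreated ratio was 1.99 (1.94 to 2.04) in the Ear window and 2.22 (2.12 to 2.33) in the Rnase2a window. With DMSO in both libraries it was 1.70 (1.66 to 1.74) and 1.81 (1.72 to 1.90). The flanks of the Ear window, 500 kb on either side, gave 0.972 and 0.909 for that comparison, and 1.03 and 1.00 where both libraries had DMSO. Of the 200 kb flanks of the Rnase2a window, the right one gave 1.04 and 1.13, and the left one gave 1.53 and 1.30.

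**Figure D1:**
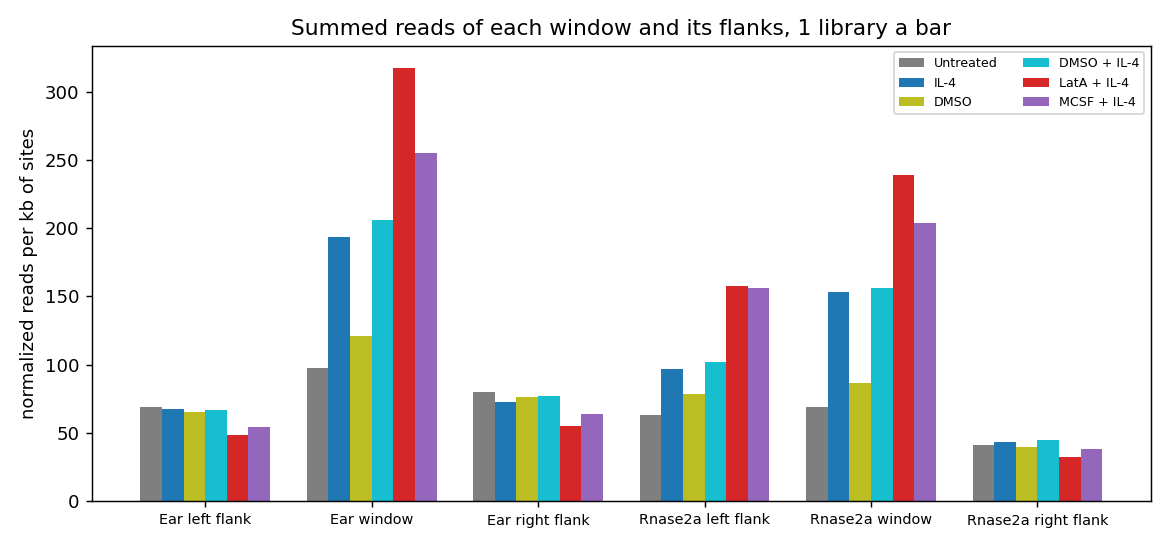
Normalized reads per kb of sites (vertical axis) in each window and its flanks, with 1 bar per library and no error bars because each group has 1 library. The Ear window went from 97.8 in Untreated to 318 in LatA + IL-4, and its flanks stayed between 48.3 and 79.8.

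LatA + IL-4 against DMSO + IL-4 gave a summed ratio of 1.55 (1.51 to 1.58) in the Ear window and 1.53 (1.47 to 1.60) in the Rnase2a window. The Ear flanks gave 0.724 and 0.713 and the Rnase2a flanks 1.56 (left) and 0.715 (right). MCSF + IL-4 against IL-4 gave 1.31 (1.28 to 1.34) and 1.33 (1.28 to 1.39). The Ear flanks gave 0.808 and 0.878 for it, and the Rnase2a flanks 1.61 (left) and 0.894 (right). The left Rnase2a flank was thus as high as the window with latrunculin A and higher than it with MCSF. Sites with means of at least 100 numbered 0 and 3 in the Ear flanks and 4 and 0 in the Rnase2a flanks, so the flanks do not show how sites as strong as the strongest members moved. The DMSO library against Untreated gave 1.24 (1.21 to 1.27) and 1.25 (1.19 to 1.32), with 0.941 and 0.958 in the Ear flanks and 1.24 (left) and 0.956 (right) in the Rnase2a flanks. DMSO + IL-4 against IL-4 gave 1.06 (1.03 to 1.08) and 1.02 (0.976 to 1.07).

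Within the Ear window the strong sites lay together. All 56 sites with a mean of at least 50 fell in the 300.2 kb from 44382008 to 44682198, which held 91 tested sites. To the right of it, from 44687178 to 44848201, the 21 tested sites reached a mean of at most 42.3. For IL-4 against Untreated, 74 of the 91 sites were higher and 1 lower, against 20.8% higher and 8.88% lower of all tested sites. To the right 4 of 21 were higher and 2 lower, which is near those shares. The mean that bounds the stretch is over 6 libraries, 4 of them with IL-4, so a site that is higher with IL-4 is more easily placed inside it, and the contrast between the stretches is a description only.

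**Figure D2:**
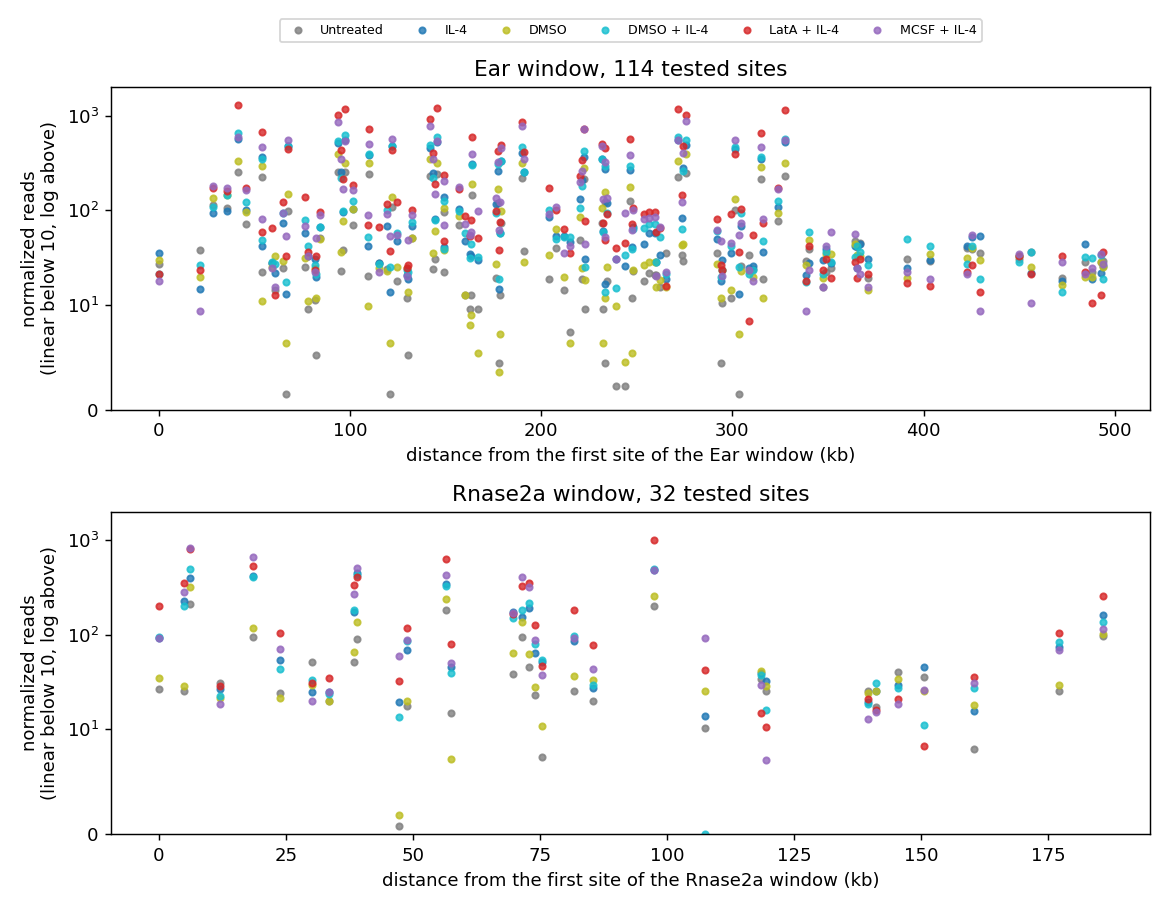
Normalized reads (vertical axis, linear below 10 and logarithmic above) of each tested site in the 6 libraries against distance from the first site of its window in kb. In the Ear window the strong sites fill a stretch of 300.2 kb, and to its right no site has a mean above 42.3.

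Most tested sites of both windows were higher with IL-4. The mean that makes a site tested is over 6 libraries, 4 of them with IL-4. A site higher with IL-4 thus passes more easily, in the windows and among all sites. In IL-4 against Untreated, 78 of 114 Ear sites were higher and 4 lower, with a median log2 ratio of 1.10, and 21 of 32 Rnase2a sites were higher and 1 lower, with a median of 1.02. Over all 132057 tested sites 20.8% were higher and 8.88% lower, with a median of 0.10. With no minimum mean, 114 of the 251 Ear sites and 33 of the 78 Rnase2a sites were higher, and 39 and 12 lower. No share over all sites is given for that setting. In DMSO + IL-4 against DMSO, 61 Ear sites were higher and 1 lower (median 0.68), and 17 Rnase2a sites were higher and 3 lower (median 0.78). The background was 16.6% higher and 12.8% lower, with a median of 0.01. Among sites with means of at least 100, the IL-4 medians were 1.11 for the 36 Ear sites and 1.73 for the 11 Rnase2a sites, against 0.11 for all 13052 such sites.

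Both IL-4 comparisons, which share no library, called 57 Ear sites (50%) and 17 Rnase2a sites (53.1%) higher, against 8.73% of all tested sites. No member was lower in both or went opposite ways.

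**Figure D3:**
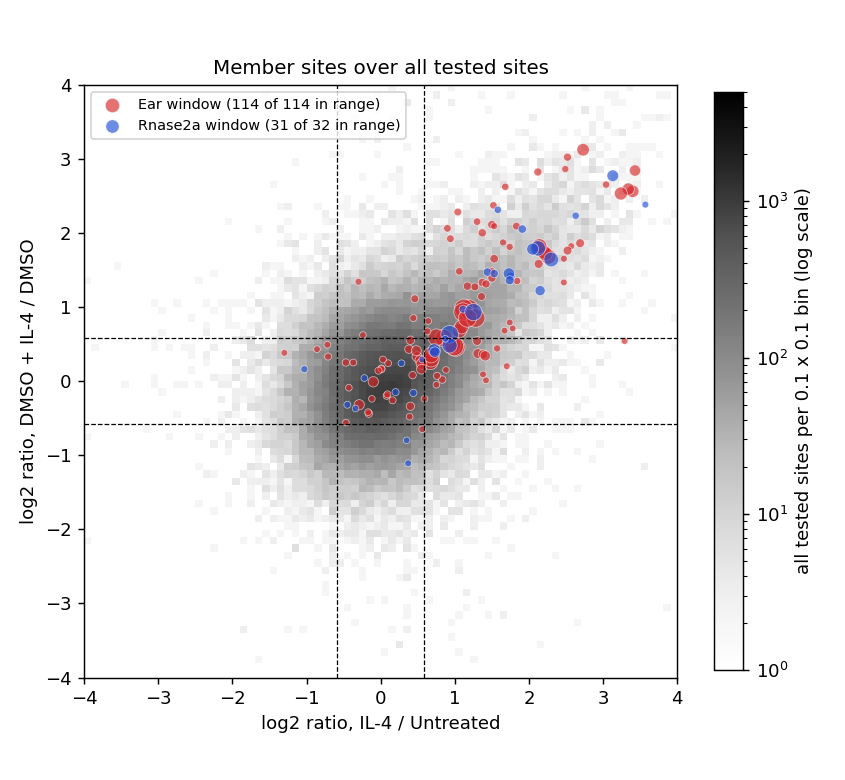
Log2 ratios of tested sites for IL-4 over Untreated (horizontal) and DMSO + IL-4 over DMSO (vertical), with 114 Ear sites in red and 31 of 32 Rnase2a sites in blue, larger points for more reads, all tested sites in grey and dashed lines at 1.5-fold. Both sets extend into the upper right corner, where 57 and 17 sites passed both thresholds.

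The largest rises were at sites with few reads in the libraries without IL-4. A ratio with a small denominator and the minimum mean both favour such sites, so this pattern was partly set in advance. Site chr14:44574890-44575377 had 18.5 and 24.3 normalized reads without IL-4 (Untreated and DMSO), 209 with IL-4, 181 with IL-4 in DMSO, 261 with IL-4 plus MCSF and 336 with IL-4 plus LatA. Its ratio was 11.3 (7.45 to 17.9) without vehicle and 7.43 (4.90 to 11.7) with it. No peak was called there in Untreated or DMSO, and peaks of 5.01 to 7.31-fold enrichment were called in the 4 libraries with IL-4.

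Site chr14:44544789-44545339 had 37.0 and 27.9 normalized reads without IL-4, 251 with IL-4 and 416 with IL-4 plus LatA. Site chr14:44628193-44628630 had 28.9, 44.1, 281, 259.9, 401 and 471 over the 6 libraries. Ratios of IL-4 to Untreated were 6.79 (5.00 to 9.39) and 9.73 (6.95 to 14.0). At both sites the libraries with IL-4 stood above those without it.

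The Rnase2a window held a site of the same kind at its left end. The looser grouping described below joined that site with 2 Ear sites. Site chr14:51805367-51805904 had 25.2 and 28.8 normalized reads without IL-4 (Untreated and DMSO), 229 with IL-4, 202 with IL-4 in DMSO, 281 with IL-4 plus MCSF and 353 with IL-4 plus LatA. Its ratios were 9.09 (6.33 to 13.4) and 7.0 (4.77 to 10.6) for the 2 IL-4 comparisons. The wide site chr14:51818874-51820503 went from 94.7 to 414 with IL-4 and from 117 to 406 with DMSO present, ratios of 4.37 (3.58 to 5.37) and 3.47 (2.82 to 4.28). It had a peak in every library, so here an already open site gained reads.

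Site chr14:51873179-51873664 went from 45.9 to 193 with IL-4 and from 63.0 to 219 with DMSO present. Site chr14:51849163-51849727 went from 17.8 to 69.7 and from 19.8 to 85.4. The weak site chr14:51847555-51847870 counted 1 read in Untreated and 20 with IL-4, a ratio of 26.5 whose interval ran from 4.24 to 1099.7. A further weak site, chr14:44597659-44597873, counted 3 reads in Untreated and 26 with IL-4.

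Sites of high read number in every library followed other patterns. Site chr14:44395336-44396366, the strongest Ear site, had 251 and 331 normalized reads without IL-4 (Untreated and DMSO), 572 with IL-4, 649 with IL-4 in DMSO, 594 with IL-4 plus MCSF and 1281 with IL-4 plus LatA. LatA + IL-4 stood 1.98-fold (1.78 to 2.19) above DMSO + IL-4, and MCSF + IL-4 did not differ from IL-4 beyond counting error, at 1.04-fold (0.919 to 1.17). Site chr14:51897779-51898549 in the Rnase2a window had the same shape, with 201, 258, 479, 493, 488 and 1004.

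Site chr14:44629467-44629920 had 249, 397, 494, 549.6, 874 and 1010.3, and so was high with both latrunculin A and MCSF. Site chr14:51806511-51807157, the strongest Rnase2a site, had 211, 318, 403, 491, 832 and 817. Its ratios were 1.66 (1.47 to 1.88) for latrunculin A and 2.06 (1.82 to 2.33) for MCSF. The looser grouping described below joined this Rnase2a site with 2 Ear sites.

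With latrunculin A or MCSF more members were higher than lower, and the same held for strong sites over the whole genome. In LatA + IL-4 against DMSO + IL-4, 52 Ear sites were higher and 9 lower (median 0.52), and 16 Rnase2a sites were higher and 2 lower (median 0.61), against 30.1% higher and 15.7% lower of all. In MCSF + IL-4 against IL-4, 41 Ear sites were higher and 11 lower (median 0.39), and 9 Rnase2a sites were higher and 4 lower (median 0.10), against 29.2% and 14.9%. At means of at least 100, the medians with latrunculin A were 0.87 for Ear, 0.81 for Rnase2a and 0.56 for all 13052 such sites, with 72.2%, 72.7% and 46.8% higher. With MCSF the medians were 0.47, 0.31 and 0.59, with 36.1%, 45.5% and 50.4% higher. Both member medians were thus below that of all sites of this minimum, and the Rnase2a share was near that of all. Of these, 26 of 36 Ear, 6 of 11 Rnase2a and 3574 of all 13052 sites reached a mean of 200, so the sets differed in strength.

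Both treatments, in comparisons that share no library, had 23 Ear sites (20.2%) and 7 Rnase2a sites (21.9%) higher, against 15.4% of all, and 2 Ear sites and 1 Rnase2a site lower against 4.36% of all. These shares are near the background. Site chr14:51871930-51872461 had 94.0 and 136 normalized reads without IL-4 (Untreated and DMSO), 155 with IL-4, 182 with IL-4 in DMSO, 410.0 with IL-4 plus MCSF and 329 with IL-4 plus LatA. Site chr14:51907830-51908480 counted 0 reads for IL-4 in DMSO and 40 for IL-4 plus LatA, and no ratio is given for it.

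**Figure D4:**
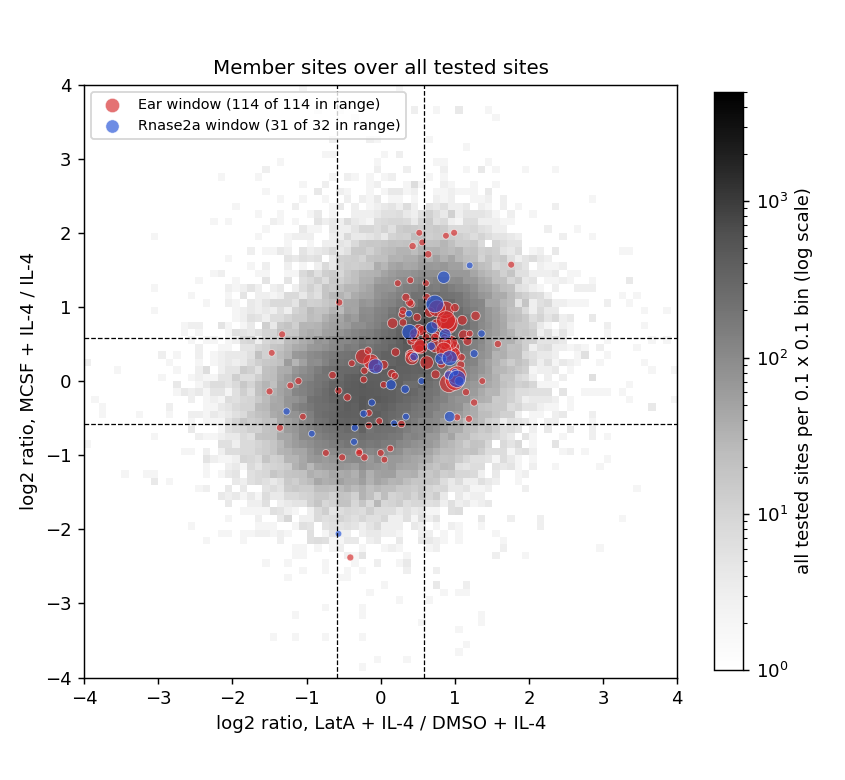
Log2 ratios of tested sites for LatA + IL-4 over DMSO + IL-4 (horizontal) and MCSF + IL-4 over IL-4 (vertical), with Ear sites in red, Rnase2a sites in blue, all tested sites in grey and dashed lines at 1.5-fold. Most large points lie right of 0 along the horizontal axis, and 23 Ear and 7 Rnase2a sites passed both upper thresholds.

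The sites called higher with IL-4, with and without vehicle, were then compared with each treatment added. Of the 57 Ear sites that both IL-4 comparisons called higher, 0 were lower with latrunculin A and 2 with MCSF, while 28 were higher with latrunculin A, 22 with MCSF and 11 with both. Of all 11528 tested sites so called, 10.7% were lower with latrunculin A and 9.80% with MCSF, while 28.7% were higher with latrunculin A, 47.8% with MCSF and 14.9% with both. Of the 17 such Rnase2a sites, 0 were lower with either, 11 were higher with latrunculin A, 5 with MCSF and 4 with both. In both windows the share higher with latrunculin A (49.1% and 64.7%) was thus above that of all such sites, and the share higher with MCSF (38.6% and 29.4%) below it. At means of at least 100, where only 3.25% of all such sites were lower with latrunculin A and 1.77% with MCSF, 14 of 20 Ear and 5 of 8 Rnase2a sites were higher with latrunculin A, against 23.5% of all. With MCSF, 1 of 20 Ear and 4 of 8 Rnase2a sites were higher, against 47.4%. These comparisons share the IL-4 or DMSO + IL-4 library with those that chose the sites. Near-copies among the Ear sites, described below, were each counted, so the Ear counts are not of separate profiles. The 2 Ear sites lower with MCSF were weak. Site chr14:44724637-44724958 counted 31 reads with IL-4 and 13 with MCSF added, and site chr14:44837905-44838535 had 45 and 18.

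Of the tested sites, 4 of 114 Ear sites (3.51%) and 3 of 32 Rnase2a sites (9.38%) were within 1.5-fold in all 6 comparisons, against 17.2% of all. The strongest was chr14:44486103-44486762, with 51.1, 50.4, 67.7, 74.3, 87.9 and 99.1 normalized reads. DMSO against Untreated gave 26 higher and 9 lower Ear sites and 7 and 2 Rnase2a sites, against 16.8% and 7.24% of all. At means of at least 100 its medians were 0.43 for Ear, 0.38 for Rnase2a and 0.36 for all sites. DMSO + IL-4 against IL-4 gave 10 and 4 Ear sites and 1 and 3 Rnase2a sites, against 11.2% and 9.80%.

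Many Ear sites had near-copies of their counts elsewhere in the window. By a rule of read counts within 10% in all 6 libraries and widths within 10%, 14 pairs of the 6441 Ear pairs were alike and involved 26 sites, and none of the pairs in the Rnase2a window or in any flank was. At means of at least 100, 18 of 36 Ear sites (50%) had such a partner within 500 kb, against 0 of 11 Rnase2a sites and 4.61% of all sites. The windows lie farther apart than that, so partners between an Ear and an Rnase2a site were not searched by this rule. At minimum means of 50 and 200 the Ear share was 42.9% and 61.5% and that of all sites 2.30% and 9.76%. Sites chr14:44449070-44449481 and chr14:44497103-44497539 were such a pair, with 22.9, 36.0, 251, 218, 346 and 429 normalized reads at the first and 23.7, 35.1, 248, 217, 344 and 405 at the second.

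A looser grouping, formed after the values were seen, joined sites with means of at least 100 whose log2 normalized reads differed by at most 0.35 in every library. The 47 such sites fell into 11 groups of 2 or more, holding 32 sites, and 15 single sites, so that 26 profiles described them. This limit is loose, since 35.4% of all sites of that strength had a partner within 500 kb by it, against 80.6% of Ear and 36.4% of Rnase2a sites. For Rnase2a that share is the background level, and it leaves out partners in the Ear window. In all, 18 combinations of criterion and minimum mean were examined. The Ear share was above that of all sites in each of them, while the Rnase2a share was above it in some and below it in others.

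Along the Ear window the groups came in a repeated order. Lettered A to K by their mean, groups A, K, D, E, B and I followed each other from 44395336 and again from 44451325. From 44625510 the order A, B, E, D, K and A ran the other way, with 1 ungrouped site after the first A. Between these stretches, F, H, G and C were followed, after 3 ungrouped sites, by C, G, H and F.

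Of the 11 groups, 3 held sites of both windows. Group C joined chr14:51806511-51807157 with 2 Ear sites, and group I joined chr14:51805367-51805904 with 2 Ear sites. Group E had 3 Ear sites and 1 Rnase2a site, chr14:51839427-51840137. That site had 89.5, 136, 445, 425, 509.5 and 405 normalized reads, and the Ear site chr14:44421552-44422229 had 98.4, 147, 474, 472, 554 and 441. All 4 sites rose with IL-4 by 2.14 to 2.30 on the log2 scale, and latrunculin A left them at −0.24 to −0.07. Group A rose by 1.11 to 1.28 with IL-4 and by a further 0.92 to 1.03 with latrunculin A, and its MCSF ratios ran from −0.03 to 0.08. Group I had the largest IL-4 rise, 3.13 to 3.40. If a read reported at several positions was counted at each, sites of a group are not independent of each other. How the counting treated such reads is not given in the sources used here, and whether the sites share reads was not tested.

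**Figure D5:**
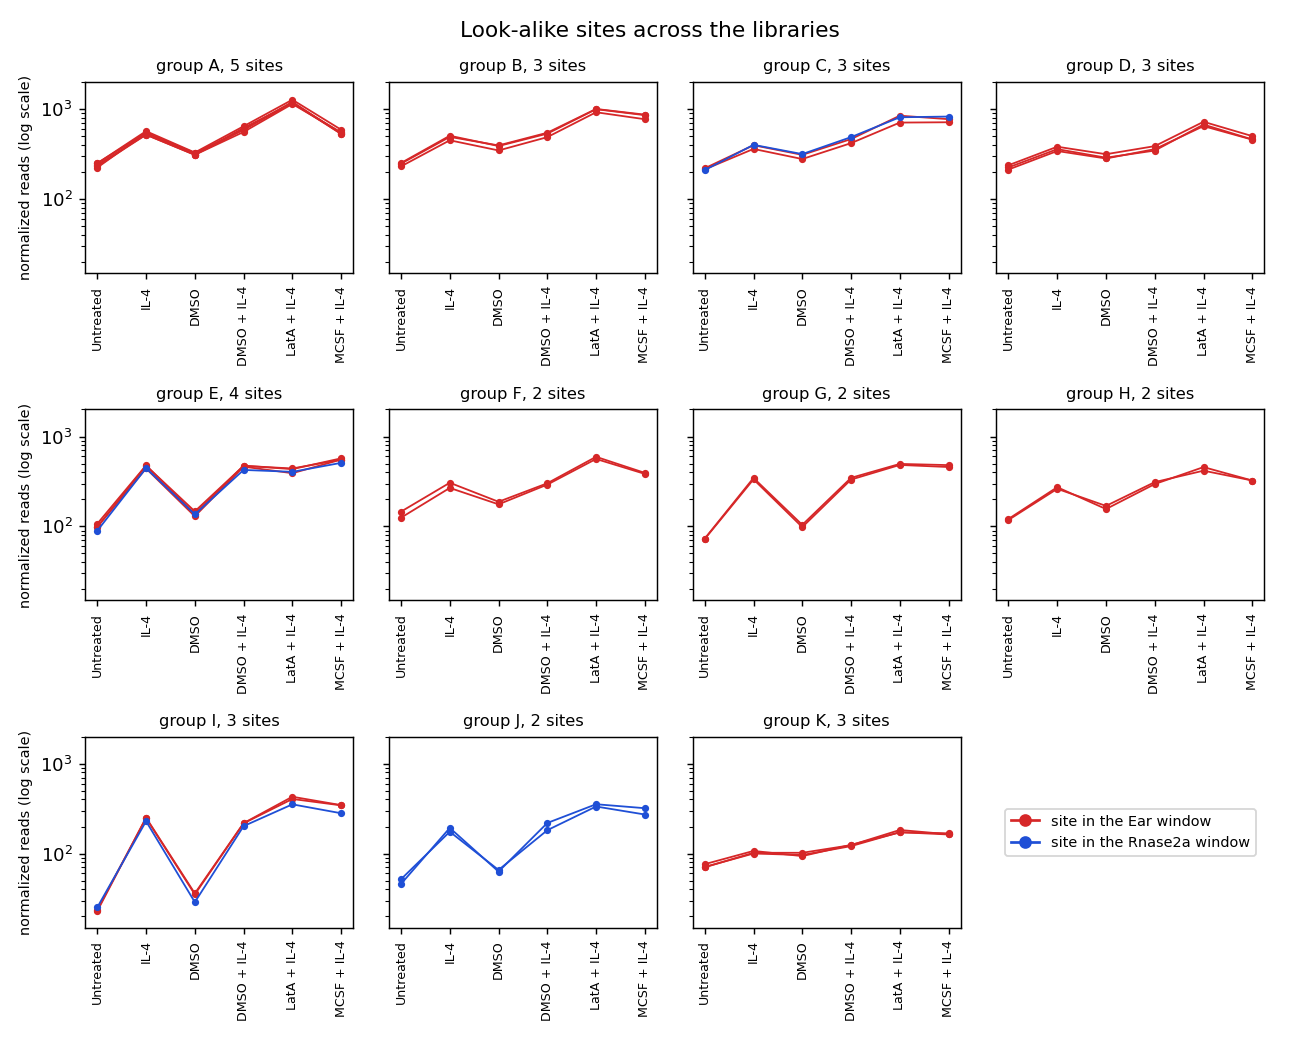
Normalized reads (log scale) in the 6 libraries for each site of the 11 groups, with 1 line per site, red in the Ear window and blue in the Rnase2a window. Lines of a group lie close by construction, and the ratios of IL-4 to Untreated are larger in groups E and I than in groups D and K.

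Counting 1 site per group and window left 97 tested Ear sites and 31 tested Rnase2a sites, and moved the Ear sum for IL-4 against Untreated from 1.99 to 1.82. Outside the windows, the sites with the profile most like that of chr14:44395336-44396366 were chr5:57394620-57395279, chr14:52474392-52475427 and chr7:49745776-49746765, with Pearson r of log2 normalized reads of 0.9992, 0.9981 and 0.9980 over 6 libraries. Of 34771 sites compared, 61 had r above 0.99. The chr14 site had 184, 227, 415, 439, 421 and 939.6 normalized reads. For chr14:51806511-51807157, 274 sites had r above 0.99, led by chr11:107178906-107179993 with 0.9999.

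Peaks, called by the authors in each library, overlapped between 95 and 112 of the 251 Ear sites and between 30 and 42 of the 78 Rnase2a sites. An overlap of at least 1 base was enough. A peak in all 6 libraries was found at 40 Ear sites (15.9%) and 15 Rnase2a sites (19.2%), against 11.6% of all sites. At 16 Ear sites (6.37%) and 1 Rnase2a site (1.28%) a peak was called in all 4 libraries with IL-4 and in neither without, against 1.17% of all. The 16 Ear sites include both Ear sites of group I, which are near-copies. Peaks in both libraries without IL-4 and in none with it were at 4 Ear sites (1.59%) and 2 Rnase2a sites (2.56%), against 1.90% of all.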

How the data were processed

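ATAC-seq was performed on 6 BMDM libraries, 1 per group, with groups taken from the labels. Per the study's methods, the authors trimmed reads with Cutadapt, aligned them to mm9 with Bowtie2 reporting up to 10 positions per read, removed duplicates with Picard, called peaks with macs2 at q of 0.05 and counted reads with featureCounts. Versions are not given in the sources used here. The deposited site table holds a signal per site, which the authors scaled with TMM factors in edgeR. Within a library, values were whole multiples (within 0.01) of the smallest one, which recovered reads for 100.0% of them. The deposited peak lists give a fold enrichment, a ratio to local background made by the authors. Their deposited −log10 q-value served only for a stricter threshold, and the deposited score column was not used.

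Reads were divided by the effective library size over the geometric mean of those sizes. The read ratios and intervals were tested on simulated data. Sites were named by rules on rank and on calls, as the strongest per window, those called in both IL-4 or both treatment comparisons, those called in none, and the most alike outside. The members and lists were chosen with earlier results of these data known. The look-alike grouping was chosen after 18 combinations of criteria had been seen. The set of motifs was chosen with no list fixed for it. Python 3.11.15, numpy 2.4.6, pandas 2.3.3, scipy 1.17.1 and Biopython 1.88 were used. Reads in sites numbered 12387332 to 19889902 per library.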

Additional observations from a re-analysis of the deposited data

How the results depend on the processing

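Each group had 1 library, so no replicate could be left out. No paired analysis was possible because the groups compared share only 1 replicate number. A fit of IL-4 and vehicle as additive terms over the 4 libraries concerned was not run. Comparisons are listed with higher/lower sites, in the order IL-4 without vehicle, IL-4 in vehicle, LatA, MCSF, vehicle alone and vehicle in the presence of IL-4. With a minimum mean of 50, the Ear window gave 45/0, 35/0, 33/0, 19/0, 10/1, 0/0 and the Rnase2a window 17/0, 14/0, 12/0, 5/0, 3/0, 0/0. With no minimum, the Ear window gave 114/39, 97/29, 73/59, 62/58, 62/42, 46/30 and the Rnase2a window 33/12, 31/17, 30/19, 24/16, 23/15, 15/13. With a 2-fold threshold, the Ear window gave 62/1, 44/0, 17/7, 15/4, 12/2, 1/1 and the Rnase2a window 16/1, 14/2, 6/1, 4/1, 2/0, 0/2. These counts move because fewer or more sites are tested, or because the threshold differs. With 5 reads added, lower Ear sites were 0 for DMSO + IL-4 against DMSO and 5 for DMSO against Untreated, and higher Rnase2a sites 4 for the latter. With total reads as the scale, lower sites for DMSO against Untreated were 14 (Ear) and 4 (Rnase2a). The summed ratios were then 1.95, 1.78, 1.51, 1.25, 1.14, 1.04 for Ear and 2.18, 1.89, 1.5, 1.27, 1.15, 0.999 for Rnase2a, of which the last turned from above to below 1; the cause was not tested. Over tested sites only, they were 2.23, 1.83, 1.63, 1.36, 1.29, 1.06 and 2.52, 2.00, 1.60, 1.35, 1.27, 1.01. With 1 site per look-alike group and window, added after seeing the data, they were 1.82, 1.63, 1.43, 1.31, 1.17, 1.05 and 2.19, 1.78, 1.52, 1.32, 1.25, 1.02. With the looser groups formed first (limit 0.5, minimum mean 50), also added, they were 1.81, 1.62, 1.43, 1.29, 1.16, 1.04 and 2.03, 1.67, 1.58, 1.36, 1.24, 1.02. Without its strongest site, the Rnase2a ratio for MCSF + IL-4 against IL-4 was 1.26. Median-of-ratios factors and q of 0.001 kept most counts and the sums near the values given. With those factors, higher Rnase2a sites for DMSO against Untreated went from 7 to 5. With a peak overlap of 50%, between 83 and 105 Ear sites and between 27 and 33 Rnase2a sites had a peak. Of 121 calls at named sites, 13 fell below the threshold with 5 reads added, 3 with median-of-ratios factors and 10 with total reads, and none reversed. With 1 library per group, no difference could be set against replicate spread, and most members had means under 20 normalized reads.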
